A study of Bos taurus with 11 samples.

Results

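CYP7A1 (ENSBTAG00000005287) and ABCG8 (ENSBTAG00000016366) encode steps by which the liver disposes of cholesterol into bile, and their transcripts were followed here in the livers of individual dairy cows. Both genes were taken by name, as 2 of the 21996 Ensembl genes counted, with earlier results of these data known. Liver RNA came from 11 multiparous Holstein-Friesian cows, labelled as 14 days post-calving. The 5 cows in mild negative energy balance (MNEB) were fed to appetite on grass silage with concentrates and were milked at low frequency. The 6 cows in severe negative energy balance (SNEB) received restricted silage and less concentrate and were milked more often. Diet and milking frequency changed together between the groups, so their parts cannot be told apart, and the study kept the cows at the extremes of energy balance. Cows are named by group and number (MNEB1 to MNEB5 and SNEB1 to SNEB6).

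CYP7A1 is cholesterol 7-alpha-hydroxylase, the rate-limiting enzyme of classical bile acid synthesis, and is made in hepatocytes. ABCG8 is one half-transporter of the pump that moves cholesterol and plant sterols across the canalicular membrane into bile, and it works only as a heterodimer with ABCG5 (ENSBTAG00000016365). ABCG5 and ABCG8 are direct neighbours among the protein-coding genes of the ARS-UCD2.0 assembly, and CYP7A1 lies on another chromosome. In textbook models the ABCG5 and ABCG8 pair is a target of the liver X receptors, while CYP7A1 is repressed by bile acids through the farnesoid X receptor. ABCG5 is described below because the transporter needs both subunits.

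The counts were reads on genes, summed over the lanes of a cow, and totalled between 1774011 and 4005322 per MNEB cow and between 1869837 and 6852142 per SNEB cow. Levels are given as TMM-scaled CPM (the reads of a gene relative to all reads on genes of that cow), which are not corrected for gene length, so levels are compared between cows and not between genes. Changes are log2 fold changes of SNEB relative to MNEB from edgeR's quasi-likelihood test over 13960 genes, called at a Benjamini-Hochberg adjusted p under 0.1. At that limit 0.544% of the genes tested were called, and 0.215% were called lower in SNEB cows. Of the 2 genes, ABCG8 was called lower and CYP7A1 was not called. Markers of hepatocytes and cholangiocytes could not be matched to identifiers, so the composition of the samples was not checked with them. Since the RNA came from whole tissue, fewer expressing cells and less RNA per cell cannot be told apart.

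ABCG8 fell in SNEB cows, and most MNEB cows stood clear above them. It had 108 CPM in MNEB1, 30.6 in MNEB2, 51.4 in MNEB3, 107 in MNEB4 and 14.4 in MNEB5. In SNEB cows it had 4.08 CPM in SNEB1, 15 in SNEB2, 13.4 in SNEB3, 15.6 in SNEB4, 14.5 in SNEB5 and 7.71 in SNEB6. The SNEB cows were all low, and 4 of the 5 MNEB cows lay above the highest of them, but MNEB5 lay within the SNEB range, so the groups overlapped. The means were 62.3 ± 43.3 CPM (SD, n = 5) and 11.7 ± 4.71 CPM (SD, n = 6). SNEB cows differed from MNEB cows by -2.43 on the log2 scale (SE 0.48, 95% interval -3.45 to -1.41, edgeR adjusted p = 0.0456), a 5.37-fold lower level. Among the 9796 genes with a mean of at least 10 CPM, only 2 had a more negative log2 fold change. The call was lost without MNEB4, one of the pair of cows with the highest ABCG8 (log2 fold change -2.14, edgeR adjusted p = 0.125), and without SNEB6 (-2.33, 0.122). It was also lost when the flow cell A cows MNEB4 and SNEB4 were both left out (-2.26, edgeR adjusted p = 0.185), and with the cow number as a replicate block (-2.09, edgeR adjusted p = 0.262). The direction was the same in each of these fits.

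CYP7A1 was lower on average in SNEB cows, but the difference did not pass the test. It had 173 CPM in MNEB1, 24.9 in MNEB2, 341 in MNEB3, 303 in MNEB4 and 38.6 in MNEB5. In SNEB cows it had 24.7 CPM in SNEB1, 21.7 in SNEB2, 51.5 in SNEB3, 67.1 in SNEB4, 152 in SNEB5 and 82.0 in SNEB6. The MNEB cows formed a high set of 3 and a low pair, and the low pair, MNEB2 and MNEB5, lay within the SNEB range. Conversely SNEB5, the highest SNEB cow, stood close to MNEB1. The means were 176 ± 145.7 CPM (SD, n = 5) and 66.4 ± 47.9 CPM (SD, n = 6). On the log2 scale SNEB differed from MNEB by -1.39 (SE 0.62, 95% interval -2.72 to -0.06), with an edgeR adjusted p = 0.563. The interval leaves room for changes from almost none to more than that of ABCG8. The call did not change in any fit that left out a cow, where the log2 fold change ran from -1.81 without SNEB5 to -1.02 without MNEB3. The study reported CYP7A1 as down-regulated in SNEB liver from the same cows, tested with an earlier DESeq version. CYP7A1 was thus called there and not here, where DESeq2 gave an adjusted p = 0.584.

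ABCG5, the partner of ABCG8, also fell, and it varied far less between the cows of a group. It had 62.2 CPM in MNEB1, 56.6 in MNEB2, 52.6 in MNEB3, 38.8 in MNEB4 and 36.4 in MNEB5. In SNEB cows it had 11.8 CPM in SNEB1, 20.9 in SNEB2, 23.6 in SNEB3, 21.8 in SNEB4, 14.8 in SNEB5 and 21.2 in SNEB6. No SNEB cow reached the lowest MNEB cow. The groups failed to overlap in this direction for 0.537% of the genes tested and in either direction for 1.3%, and they overlapped for both CYP7A1 and ABCG8. The means were 49.3 ± 11.3 CPM (SD, n = 5) and 19.0 ± 4.62 CPM (SD, n = 6). The edgeR estimate was -1.38 on the log2 scale (SE 0.21, 95% interval -1.83 to -0.93, edgeR adjusted p = 0.00952). It was nearly the same size as that of CYP7A1, whose standard error was 0.62. The names of CYP7A1, ABCG8, ABCG5 and the other genes described came from the study's own list of genes that differed between these groups, so their directions are no independent evidence.

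**Figure D1:**
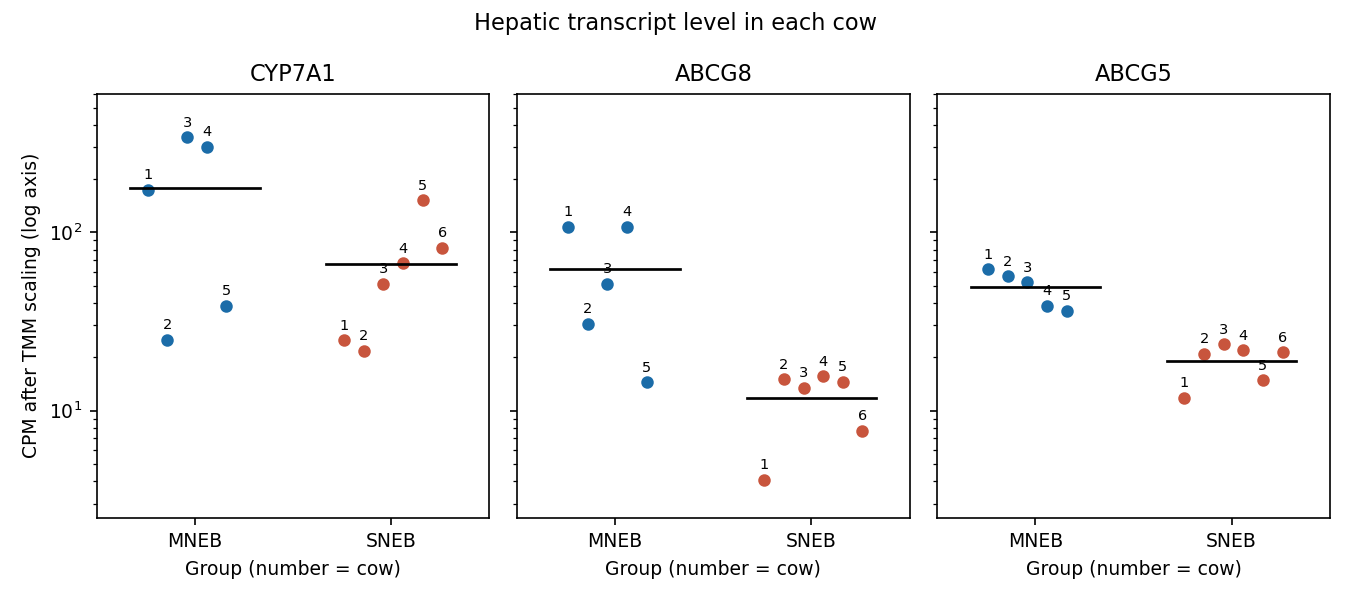
CPM after TMM scaling (log axis) of CYP7A1, ABCG8 and ABCG5 in each of the 5 MNEB and 6 SNEB cows, with cow numbers beside the points and the group mean as a line. MNEB2 and MNEB5 lie among the SNEB cows for CYP7A1, only MNEB5 does for ABCG8, and the groups are separate for ABCG5.

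For each flow cell, 1 cow of each group was run on that flow cell only, which gives a comparison of pairs without a test. Flow cells B and C also carried lanes of the other cows. On flow cell A, ABCG8 had 107 CPM in MNEB4 and 15.6 in SNEB4, and CYP7A1 had 303 and 67.1. On flow cell B alone, ABCG8 had 51.4 CPM in MNEB3 and 13.4 in SNEB3, and CYP7A1 had 341 and 51.5. On flow cell C alone, ABCG8 had 30.6 CPM in MNEB2 and 15 in SNEB2, whereas CYP7A1 had 24.9 and 21.7. The SNEB cow was therefore the lower one for ABCG8 in each of these pairs, and for CYP7A1 in the pairs of flow cells A and B. On flow cell C, CYP7A1 rested on 48 reads in MNEB2 and 52 in SNEB2. Counting error (Poisson coefficient of variation) was 14.4% and 13.9% there, so that pair cannot be ranked for CYP7A1. Among the cows run on both flow cells B and C the groups overlapped for both genes. With the flow cell as a term, the log2 fold change was -2.37 for ABCG8 (edgeR adjusted p = 0.0935) and -1.12 for CYP7A1 (edgeR adjusted p = 0.572).

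The spread between cows was wide for CYP7A1 and ABCG8 and ordinary for ABCG5. Within the MNEB group the highest cow exceeded the lowest 13.7-fold for CYP7A1, 7.47-fold for ABCG8 and 1.71-fold for ABCG5. Within the SNEB group these ratios were 6.99, 3.81 and 2. On the log2(CPM + 1) scale, the SD between MNEB cows was 1.72 for CYP7A1, 1.21 for ABCG8 and 0.34 for ABCG5, where the median gene with at least 10 CPM had 0.31. Of the 9796 genes, 24 had a wider SD than CYP7A1 and 93 a wider SD than ABCG8 in MNEB cows. Between SNEB cows the SD was 1.04 for CYP7A1, 0.68 for ABCG8 and 0.37 for ABCG5, with a median of 0.24 and with 103 and 347 genes wider than CYP7A1 and ABCG8. The MNEB group thus had the wider values for both genes, but neither difference in spread passed a 2-sided exact permutation test of the mean absolute deviation from the group median (p = 0.331 for CYP7A1 and 0.229 for ABCG8, and 0.497 for each when adjusted over 3 genes). For ABCG5 the same exact permutation test gave p = 0.961. Without MNEB1, which held the group median of CYP7A1, the difference in CYP7A1 spread rose from -0.53 to -0.86 (SNEB minus MNEB, exact permutation p = 0.0333, not adjusted). No other of the 11 omissions of a single cow passed for CYP7A1, with exact permutation p up to 0.714.

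**Figure D2:**
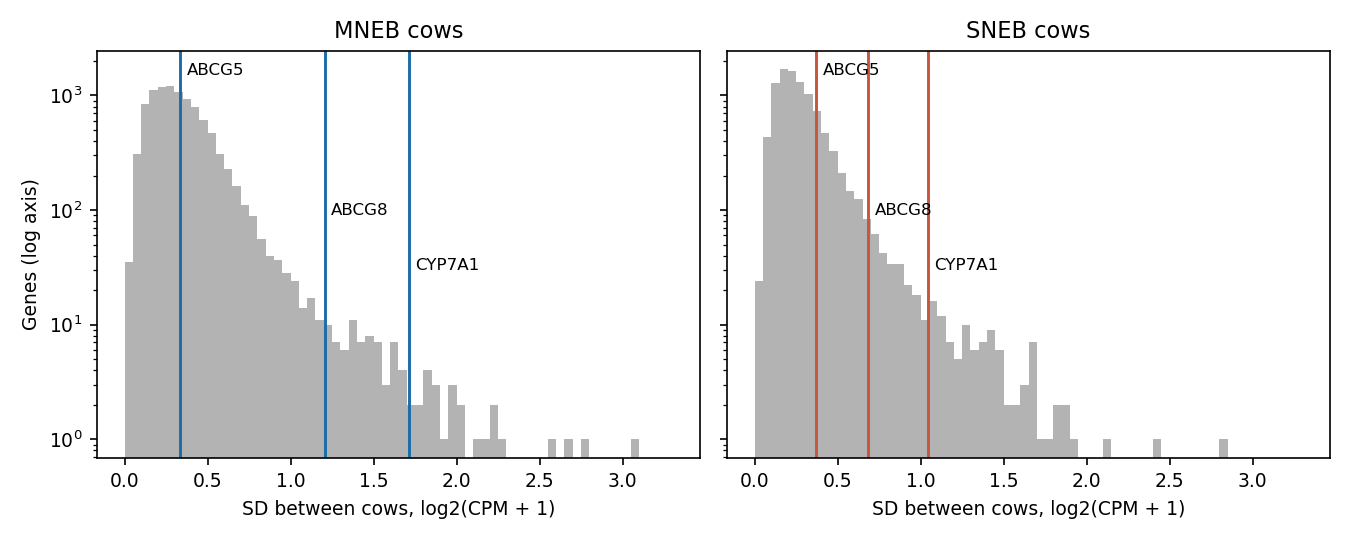
Histogram (log axis) of the SD between cows of log2(CPM + 1) for the 9796 genes with a mean of at least 10 CPM, in the 5 MNEB and the 6 SNEB cows, with lines for 3 genes. CYP7A1 and ABCG8 lie in the right tail in both groups, at 1.72 and 1.21 in MNEB cows, and ABCG5 lies in the body of the distribution at 0.34.

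Repeated lanes of a cow differed by far less than the cows did for CYP7A1 and ABCG8. In the 7 cows with more than 1 lane, the highest lane exceeded the lowest by at most 1.46-fold for CYP7A1 and 1.44-fold for ABCG8, with medians of 1.21-fold and 1.15-fold. For ABCG5 the highest such ratio was 1.49-fold, in SNEB1, and the median was 1.19-fold, nearer to its ratios between cows. The reads behind a value ran from 48 to 1014 per cow for CYP7A1 and from 18 to 439 for ABCG8. Counting error alone, as a Poisson coefficient of variation, was at most 14.4% for CYP7A1 and 23.6% for ABCG8, the latter in SNEB1. Differences between cows, and over all genes also those between lanes in most cows with several lanes, come on top of this error. SNEB cows other than SNEB1 and SNEB6, with ABCG8 between 13.4 and 15.6 CPM, therefore cannot be ranked among themselves or against MNEB5.

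Whether bile acid synthesis and sterol efflux move together was asked only of the CYP7A1 and ABCG8 transcripts, as neither process was measured here. Each value was centred on its group mean across the cows, so that the group difference itself did not count. CYP7A1 and ABCG8 were both above their group mean in MNEB1, MNEB3, MNEB4, SNEB4 and SNEB5, and both below it in MNEB2, MNEB5 and SNEB1. They went opposite ways in SNEB2, SNEB3 and SNEB6. Over the 11 cows, Pearson's r of log2(CPM + 1) was 0.64 (2-sided exact permutation test within groups, p = 0.0880) and Spearman's rho was 0.51 (exact permutation p = 0.208). Adjusted over the 3 pairs of genes, these were p = 0.248 and 0.368 in the same exact permutation test. Without MNEB2 and MNEB5, the cows farthest from the median of CYP7A1, r was 0.19 (exact permutation p = 0.679). Leaving out these cows also narrows the range of CYP7A1, so the lower r cannot show what the relation rested on. Without MNEB2 alone r was 0.62, and without MNEB5 alone it was 0.54. Within the 6 SNEB cows alone r was 0.34 and rho was 0.03 (exact permutation p = 0.533 and 1.0). The 5 MNEB cows were too few for a correlation of their own. On flow cells B and C r was 0.56 (exact permutation p = 0.197). Without SNEB2 alone r was 0.75 (exact permutation p = 0.0445, not adjusted). No other of the 11 omissions of a single cow passed, with exact permutation p up to 0.191.

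ABCG8 and ABCG5, although their products form a single transporter, were not shown to vary together beyond the group difference. Their centred values had r = 0.46 and rho = 0.43 over 11 cows (2-sided exact permutation within groups, p = 0.165 and 0.246). The r was 0.64 within the SNEB cows (exact permutation p = 0.118), where SNEB1 was the lowest for both genes. Without MNEB5 and SNEB1, the cows farthest from the median of ABCG8, r over the remaining cows was -0.26 (exact permutation p = 0.627). Leaving out these cows also narrows the range of ABCG8, so this r cannot show what the relation rested on. Without MNEB5 alone r was 0.27, and without SNEB1 alone it was 0.25. MNEB4 had nearly the highest ABCG8 and the lowest but 1 ABCG5 of its group, and without MNEB4 the r rose to 0.71 (exact permutation p = 0.0213, not adjusted). No other of the 11 omissions of a single cow passed, with exact permutation p up to 0.579. On flow cells B and C only, r was 0.70 (exact permutation p = 0.0455). CYP7A1 and ABCG5 had r = 0.06 (exact permutation p = 0.866) and rho = -0.04 (exact permutation p = 0.928).

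**Figure D3:**
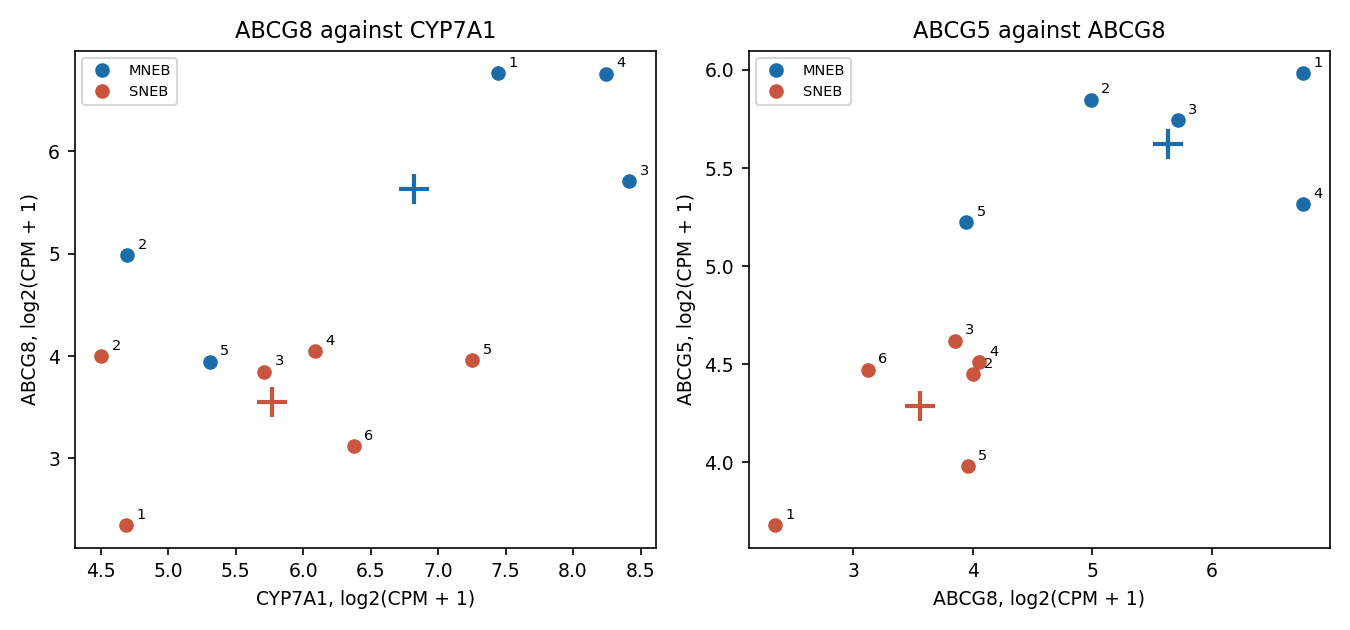
log2(CPM + 1) of ABCG8 against CYP7A1 and of ABCG5 against ABCG8 in the 11 cows, with cow numbers and a cross at the mean of each group. MNEB2 and MNEB5 are the low MNEB points of CYP7A1 in the first panel, and in the second panel MNEB4 has high ABCG8 with low ABCG5 for its group.

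The larger change of ABCG8 was set against those of ABCG5 and CYP7A1 within each cow, where gene length cancels out of the comparison of groups. The ratios were taken on log2(CPM + 1), so their group differences need not equal the differences between edgeR's fold changes. The log2 ratio of ABCG8 to ABCG5 was 0.78 in MNEB1, -0.86 in MNEB2, -0.03 in MNEB3, 1.45 in MNEB4 and -1.28 in MNEB5. In SNEB cows it ran from -1.35 to -0.02. The means were 0.01 ± 1.13 (SD, n = 5) and -0.73 ± 0.53 (SD, n = 6). The difference of -0.74 did not pass a 2-sided exact permutation test (p = 0.186). The log2 ratio of ABCG8 to CYP7A1 was -1.19 ± 1.10 in MNEB and -2.22 ± 1.03 in SNEB cows, a difference of -1.03 (2-sided exact permutation test, p = 0.147, and 0.186 for both ratios when adjusted over them). Hence ABCG8 was not shown to change by a different factor from ABCG5 or CYP7A1. Without SNEB2, which had the highest ratio of ABCG8 to CYP7A1 of its group, the second difference was -1.37 (exact permutation p = 0.0476, not adjusted). No other of the 11 omissions of a single cow passed, with exact permutation p up to 0.319.

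Of 175 genes of bile acid, sterol and related pathways and of cell type markers, only 13 had an identifier in the sources used here, all from the study's list of differing genes, so no statement on a whole pathway was possible. None of the listed bile acid transporters or enzymes besides CYP7A1 was among them. Of the 3 matched genes that sense or respond to sterols and bile acids, 2 rose and 1 did not pass (median log2 fold change 1.31, against -0.01 over all genes tested), and across all genes tested 0.33% were called higher. Since these 3 were matched only through the list of differing genes, their count and median cannot show more change than in other genes. FGF21, a hormone that the liver secretes on fasting, rose from 67.1 ± 22.6 CPM (SD, n = 5) to 167 ± 21.8 CPM (SD, n = 6), or by 1.31 on the log2 scale (SE 0.20, with an edgeR adjusted p = 0.00952). RXRG, a retinoid X receptor of the family that pairs with the liver X and farnesoid X receptors, rose from 49.9 ± 23.9 to 141 ± 29.0 CPM, or by 1.49 on the log2 scale (SE 0.27, with an edgeR adjusted p = 0.0326). Both were higher in every SNEB cow than in any MNEB cow, and the groups failed to overlap in either direction for 1.3% of the genes tested. PPARGC1A, a coactivator of fasting metabolism, had 130 ± 61.5 and 195 ± 79.0 CPM (log2 fold change 0.60, edgeR adjusted p = 0.636).

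PDK4, a kinase that spares glucose when fat is oxidized, had 95 ± 46.9 and 205 ± 77.8 CPM (edgeR adjusted p = 0.291). The inflammatory genes CCL2 and IL1RN had log2 fold changes of 1.38 and 0.78 (edgeR adjusted p = 0.213 and 0.119). ARNTL, a core clock gene, had 54.0 ± 19.9 and 37.2 ± 18.1 CPM (edgeR adjusted p = 0.671).

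Of the cell type markers only LGR5 and MARCO could be matched. LGR5, an R-spondin receptor listed here for intestinal epithelium, had 13.1 ± 6.71 CPM (SD, n = 5) in MNEB and 4.57 ± 2.80 CPM (SD, n = 6) in SNEB cows (log2 fold change -1.54, edgeR adjusted p = 0.176). It had 14.7 CPM in MNEB1, 12.5 in MNEB2, 5.91 in MNEB3, 23.6 in MNEB4 and 9.09 in MNEB5. The cows with the most ABCG8, MNEB1 and MNEB4, had the most LGR5, but MNEB3, next in ABCG8, had the least of its group. MARCO, a macrophage receptor, had 139 ± 62.9 and 90.3 ± 51.4 CPM (log2 fold change -0.64, edgeR adjusted p = 0.712). Which cells of these livers made LGR5 was not determined, and the part of other cell types in these results was not tested.

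**Figure D4:**
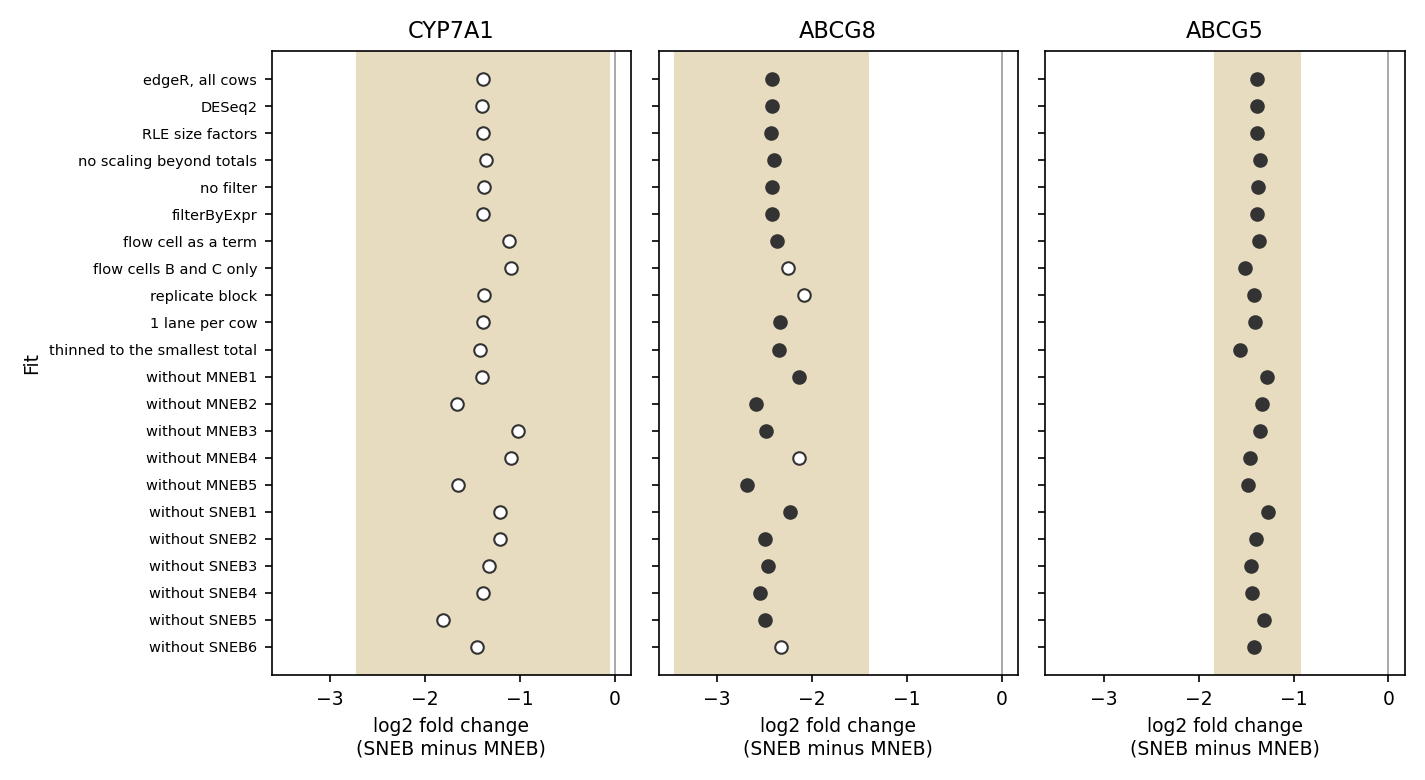
Log2 fold change of SNEB relative to MNEB for CYP7A1, ABCG8 and ABCG5 in the edgeR fit of all cows, with other tests, scalings, filters and terms, and without each cow in turn. Filled points have an adjusted p under 0.1 and the band is the 95% interval of the edgeR fit of all cows. All points lie below 0, CYP7A1 is open throughout, ABCG5 is filled throughout, and ABCG8 is open in 4 fits.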

How the data were processed

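Short single reads from polyA-selected liver RNA of 11 cows had been sequenced on 19 lanes of several flow cells. The authors aligned the reads lane by lane (Bowtie, BCM4 assembly), removed those with several alignments, reduced reads that shared a start to a single read, and deposited raw counts per Ensembl gene from HTSeq (union mode). Removal of shared starts puts a ceiling on the counts of abundant or short genes. The strand setting is not given in the sources used here, so reads where neighbouring genes overlap are uncertain.

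Lanes of a cow were summed, and genes that reached 5 reads in any cow were kept, 63.5% of those deposited. Groups came from the sample labels. SNEB and MNEB cows were compared with edgeR 4.0.16 in R 4.3.3 (TMM scaling, quasi-likelihood test, Benjamini-Hochberg adjustment, limit 0.1 after the study's methods). The standard error is the log2 fold change over the square root of F. DESeq2 1.42.0 was an alternative. The study's methods give the limit of 0.1 for the adjusted p, but its abstract and results give 0.1%. At 0.1% no gene would be called in the edgeR fit of all cows. That includes ABCG8 and ABCG5 (edgeR adjusted p = 0.0456 and 0.00952). With DESeq2 both would still be called at 0.1% (DESeq2 adjusted p = 6.93e-05 and 2.59e-07). Correlations, ratios and spreads used log2(CPM + 1) and exact permutation tests (limit 0.05) in Python with SciPy 1.17.1, and plots were drawn with matplotlib 3.10.9. Scripts were tested on simulated data. Totals per cow are given above, and counting error only is covered by the Poisson values. Alternatives were other scalings, filters, pseudocounts and tests, 1 lane per cow, thinned counts, terms for flow cell or for replicate number, and omission of single cows.

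The genes and lists were chosen with earlier results of these data known. The rule for named genes took CYP7A1, ABCG8, ABCG5, each matched gene of the pathway and marker lists that was called or on a fixed list of regulators, and the genes most like each of them. Identifiers were paired with names by a supplementary list of the study (384 names), and matched genes that were not called are also given since so few matched, except 1 that is not reported here. No sequences or positions on BCM4 were used here.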

Additional observations from a re-analysis of the deposited data

How the results depend on the processing

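CYP7A1 stayed uncalled and ABCG5 stayed called in each of the 10 alternatives and the 11 fits without 1 cow. The log2 fold change of CYP7A1 ran from -1.42 to -1.10 over the alternatives (adjusted p from 0.502 to 0.941), and DESeq2 gave an adjusted p = 0.584. ABCG8 kept its call in 8 of the 10 alternatives, with DESeq2 at an adjusted p = 6.93e-05, and in 9 of the 11 fits without 1 cow (log2 fold change from -2.69 to -2.14). It lost the call on flow cells B and C only (-2.26, edgeR adjusted p = 0.185) and under a replicate block (-2.09, edgeR adjusted p = 0.262). Same-numbered cows deviated from their group means with correlations from -0.09 to 0.47, given without a test, and only number 3 matched best with itself in both groups. Same-numbered cows were run on the same flow cells, although the labels do not tie the number to a batch. The block moved the count of called genes from 76 to 80. That count was 34 on flow cells B and C, 290 with DESeq2 and 40 to 125 without 1 cow (40 without MNEB5, 50 without MNEB3, 121 without SNEB3 and 125 without MNEB1). Without 1 cow, r ran from 0.54 to 0.75 for CYP7A1 with ABCG8, from 0.25 to 0.71 for ABCG8 with ABCG5 (0.70 on flow cells B and C, p = 0.0455 by exact permutation), and from -0.15 to 0.25 for CYP7A1 with ABCG5. The difference in the ratio of ABCG8 to CYP7A1 ran from -1.40 to -0.66, and that in the spread of CYP7A1 from -0.86 to -0.17. The causes of these shifts were not tested. With 18 to 108 ABCG8 reads per SNEB cow, differences among SNEB cows were limited by counting.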

Other observations

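In group-centred levels over the 11 cows, CYP7A1, ABCG8 and ABCG5 were not among the genes most like each other. Among the 9795 other genes with a mean of at least 10 CPM, ABCG8 stood at place 628 in likeness to CYP7A1 by Pearson's r, and CYP7A1 at place 239 in likeness to ABCG8. ABCG5 stood at place 915 in likeness to ABCG8 and at place 4598 in likeness to CYP7A1. The 5 genes most like CYP7A1 had r from 0.91 to 0.94 and those most like ABCG8 from 0.86 to 0.92, and none of them had a name in the sources used here. The closest was ENSBTAG00000013224 for CYP7A1 (r = 0.94) and ENSBTAG00000012263 for ABCG8 (r = 0.92). Among the 3 genes that ran most opposite to CYP7A1, SLC45A3, a solute carrier, had r = -0.93 and levels of 25.5 CPM in MNEB and 73.9 CPM in SNEB cows (edgeR adjusted p = 0.365). These correlations are the extremes of many genes over few cows and are given as a description.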
